A study of Mus musculus with 12 samples.

Results

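The Fos, Jun and Egr families are immediate early genes, and 10 of them were followed here: Fos, Fosb, Fosl1, Fosl2, Jun, Junb, Jund, Egr1, Egr2 and Egr3. They were found as every probe, control spots aside, that the array files name for one of these genes, which gave 13 of 41174 distinct probes on 40 spots. Jund was reached through its accession, because the files carry it under its old name Jund1. The cells were mouse embryonic fibroblasts (MEFs), connective tissue cells that the labels describe as grown from E12.5 embryos on a C57Bl/6 background. The 4 groups held 3 arrays each: homozygous GR-C3 knockin MEFs given dexamethasone (Dex), GR-C3 knockin MEFs given vehicle, wild-type (WT) MEFs given Dex and WT MEFs given vehicle. Dex, a synthetic glucocorticoid, was given at 100 nM for 6 hours. In the knockin, exon 2 of Nr3c1, the gene of the glucocorticoid receptor (GR), was replaced by a version in which GR-C3 keeps its start codon and the start codons of the other translational isoforms were changed, so that GR-C3 is the receptor isoform left. The series' design text traces the mice to a single positive embryonic stem cell clone, with the hygromycin cassette removed by a cross to Flp-deleter mice. Heterozygous cells were not analysed here. The labels call the samples biological replicates and do not say whether these were separate embryos or cultures, so the spread behind the p-values may be technical.

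Fos and Jun proteins form the dimeric transcription factor AP-1 through their leucine zippers. Jun proteins can pair among themselves, while Fos proteins generally need a Jun partner. Egr proteins are zinc finger factors that bind GC-rich sites, and in fibroblasts serum and growth factors switch on many of these genes within minutes through MAP kinases, serum response factor and CREB family proteins. The ligand-bound GR is known for holding down AP-1 activity at protease and cytokine genes. The arrays measure the mRNA of these families and not that activity.

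All levels below are on a log2 scale on which 0 is the signal at the array's own 75th percentile. Levels of different probes cannot be set against each other. Of the 13 probes, 12 were well above background on all 12 arrays by the scanner's call, and none was saturated. Comparisons used limma across 20836 genes with Benjamini-Hochberg adjusted p under 0.05, and changes are log2 differences ± standard error. Between 70.7 and 78.4% of an array's probes were well above background, and precision is set by how few arrays a group has.

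One array, labelled WT vehicle replicate 1, did not resemble the rest of its group. Its log2 levels correlated across genes at 0.983 with both other WT vehicle arrays, which correlated with each other at 0.998, and at 0.987 to 0.989 with the WT Dex arrays. It was alone on its slide and scan day. Fkbp5, a gene that the GR switches on, was at 2.16, 1.90 and 2.06 in WT Dex. In WT vehicle it was at 1.51 in replicate 1, far from the -2.64 and -2.74 of replicates 2 and 3. The members' changes that involve WT vehicle are therefore given with all 12 arrays and with 11 arrays, without this one, while sums and most genotype counts of other gene lists are given with 12. The 4 Nr3c1 probes were well above background on all 12 arrays and cannot tell the translational isoforms apart, so they do not check the genotype labels. Fibroblast markers (11 of 11, among them Col3a1, Dcn and Pdgfra) were well above background on every array.

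Upstream sequences of 7 members were taken from the RefSeq promoter table (build GRCm38.p6), and Fosl1, Egr1 and Egr3 are not covered. The 250 bases before the start are printed for Jun, Junb and Egr2, which were higher in GR-C3 cells, and for Fos. Fos passed as higher with Dex in WT cells only without WT vehicle replicate 1 or with slide as a fixed block. With all 12 arrays the Fos change did not pass limma's test (1.09, adjusted p = 0.26). Both strands were searched for the CRE core TGACG, which is contained in the full CRE, the TRE-like element TGACATCA known from Jun and the CArG box of serum response factor, and matches are in capitals.
Fos, chr12:85473640-85473889, plus strand: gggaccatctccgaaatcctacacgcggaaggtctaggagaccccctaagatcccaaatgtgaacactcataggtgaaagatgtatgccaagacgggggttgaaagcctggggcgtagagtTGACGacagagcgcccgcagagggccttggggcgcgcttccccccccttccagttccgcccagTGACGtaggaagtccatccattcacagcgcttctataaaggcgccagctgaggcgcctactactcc
Jun, chr4:95052223-95052472, minus strand: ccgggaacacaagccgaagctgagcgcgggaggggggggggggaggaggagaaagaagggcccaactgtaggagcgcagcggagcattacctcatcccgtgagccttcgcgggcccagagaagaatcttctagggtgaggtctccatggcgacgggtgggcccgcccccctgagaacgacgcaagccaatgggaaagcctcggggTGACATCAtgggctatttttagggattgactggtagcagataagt
Junb, chr8:84978749-84978998, minus strand: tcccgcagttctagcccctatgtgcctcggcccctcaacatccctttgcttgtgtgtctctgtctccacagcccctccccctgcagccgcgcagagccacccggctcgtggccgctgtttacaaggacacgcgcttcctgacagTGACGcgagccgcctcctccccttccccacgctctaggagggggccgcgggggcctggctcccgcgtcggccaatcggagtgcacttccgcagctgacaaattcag
Egr2, chr10:67537619-67537868, plus strand: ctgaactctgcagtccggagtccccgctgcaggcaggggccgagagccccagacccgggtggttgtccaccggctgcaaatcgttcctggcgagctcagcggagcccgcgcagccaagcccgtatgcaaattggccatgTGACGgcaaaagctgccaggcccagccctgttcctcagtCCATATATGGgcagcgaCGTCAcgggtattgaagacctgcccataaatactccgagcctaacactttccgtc

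The Fos window held the CRE core at 129 and at 66 bases before the start, the Junb window at 106 bases and the Jun window the TRE-like element at 45 bases. The Egr2 window, which belongs to 1 of 5 Egr2 entries, held a CArG box at 72 bases with a CRE core on either side, and 4 of the 5 entries held a CArG box. Among 32851 promoter windows of the same length, 17.8% held the CRE core, 2.93% the TRE-like element and 1.47% a CArG box. Searched on both strands as well, the full CRE TGACGTCA (1.55% of windows), the TRE consensus TGANTCA (6.75%) and the hexamer AGAACA of GR elements (16.1%) were found in no window of the 7 members. The GC-rich Egr site GCGNGGGCG (4.70%) was found for Fosb and Fosl2.

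The first question was which members Dex changed in WT cells. With all 12 arrays none of the 10 passed the test, where 0.12% of all genes did, and 3 had an unadjusted p under 0.05 (16.6% of all genes). With slide as a fixed block 4 members passed, namely Fos (2.07, adjusted p = 0.00199), Fosl1 (-0.82, adjusted p = 0.0146), Fosl2 (0.66, adjusted p = 0.0352) and Egr3 (-0.90, adjusted p = 0.049). In that fit WT vehicle replicate 1, alone on its slide, had no weight. Each value is the difference of WT Dex replicate 1 from WT vehicle replicates 2 and 3 on the slide they share. With 11 arrays, Fos rose and Fosl1, Jun, Egr1 and Egr3 fell, so 5 of 10 members passed where 12.2% of all genes did (5.41% rose and 6.79% fell). The median change of the 10 members was 0.03, beside 0.02 over all genes, and members moved in both directions.

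Fos, the founding partner of Jun in AP-1, was the member that rose with 11 arrays, without WT vehicle replicate 1. Its probe (chromosome 12, 83478431 to 83478490 in build mm7, plus strand) was at 0.18, -0.46 and -0.13 on the WT Dex arrays, against 0.12, -2.08 and -1.70 on the WT vehicle arrays. The WT Dex arrays were all above WT vehicle replicates 2 and 3, and the array labelled WT vehicle replicate 1 lay within the range of WT Dex. The change was 1.76 ± 0.21 with 11 arrays, 3.38-fold (adjusted p = 0.000464), and 1.09 ± 0.44 with 12 arrays (adjusted p = 0.26). Within the slide that carried WT Dex replicate 1 with WT vehicle replicates 2 and 3 the difference was 2.07. Fos had 10 spots per array with a coefficient of variation of 2.62 to 9.27%, so spot noise was small beside this difference.

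Its relative Fosl1, which encodes the AP-1 subunit Fra-1, went the other way. Fosl1 was at -1.09, -1.11 and -0.93 in WT Dex, against -1.21, -0.22 and -0.32 in WT vehicle. Apart from replicate 1, WT vehicle was above every WT Dex array, and the change was -0.78 ± 0.10 with 11 arrays (1.71-fold lower, adjusted p = 0.000787) and -0.46 ± 0.21 with 12 (adjusted p = 0.309). Within the shared slide the difference was -0.82.

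Jun, the principal Jun subunit, was at 0.87, 0.80 and 0.45 in WT Dex, against 0.61, 1.38 and 1.27 in WT vehicle. It fell by 0.62 ± 0.12 with 11 arrays (adjusted p = 0.0104), and the 12-array change was -0.38 ± 0.19 (adjusted p = 0.33). The call for Jun was lost without WT vehicle replicate 2 (-0.56, adjusted p = 0.11) or replicate 3 (-0.68, adjusted p = 0.0569) and with slide as a block (-0.46, adjusted p = 0.174).

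Among the Egr genes, Egr1 and Egr3 fell and Egr2 did not pass. Egr1, the classical serum-induced zinc finger factor, was at 1.34, 1.15 and 1.05 in WT Dex, against 1.64, 1.63 and 1.89 in WT vehicle. It was the 1 member whose 3 Dex and 3 vehicle arrays did not overlap in WT cells, where 8.97% of all genes were lower without overlap. The change was -0.58 ± 0.12 with 11 arrays (adjusted p = 0.0141) and -0.54 ± 0.12 with 12 (adjusted p = 0.105), and the call was lost without WT vehicle replicate 3 (-0.45, adjusted p = 0.165) and with slide as a block (-0.42, adjusted p = 0.178).

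Egr3, a related zinc finger factor, was measured by 2 probes that differed. The probe used (chromosome 14, 64726656 to 64726715 in mm7) was at -4.67, -5.43 and -4.93 in WT Dex, against -5.06, -3.88 and -3.66 in WT vehicle. Replicate 1 again lay within the WT Dex range. The change was -1.24 ± 0.19 with 11 arrays (2.37-fold lower, adjusted p = 0.00209) and -0.81 ± 0.31 with 12 (adjusted p = 0.235). The probe was dim: in WT Dex replicate 2 it was at -5.43, where the lowest level well above background was -6.29. With 12 arrays 1 alternative processing turned the sign of the change (1.69), without a call. The other Egr3 probe, at 64723504 to 64723563, was well above background on 2 of the 3 WT Dex arrays and 2 of the 3 WT vehicle arrays. That probe gave 0.21 ± 0.42 with 11 arrays (adjusted p = 0.781), so the decrease rests on a single probe.

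Egr2, known as Krox20 and as a regulator of Schwann cell myelination, was at -1.17, -1.36 and -1.72 in WT Dex, against -1.36, -2.02 and -1.71 in WT vehicle, with overlapping groups. Its change was 0.45 ± 0.16 with 11 arrays (adjusted p = 0.0945), and it passed only without WT Dex replicate 3 (0.60, adjusted p = 0.0203). Fosb, Fosl2, Junb and Jund did not pass either, with changes of 0.30, 0.32, 0.03 and 0.04 with 11 arrays. Fosl2, which encodes Fra-2, was at 2.36, 1.77 and 1.93 in WT Dex, against 2.53, 1.76 and 1.64 in WT vehicle. With slide as a block its change was 0.66 (adjusted p = 0.0352), the 1 setting in which it passed.

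**Figure D1:**
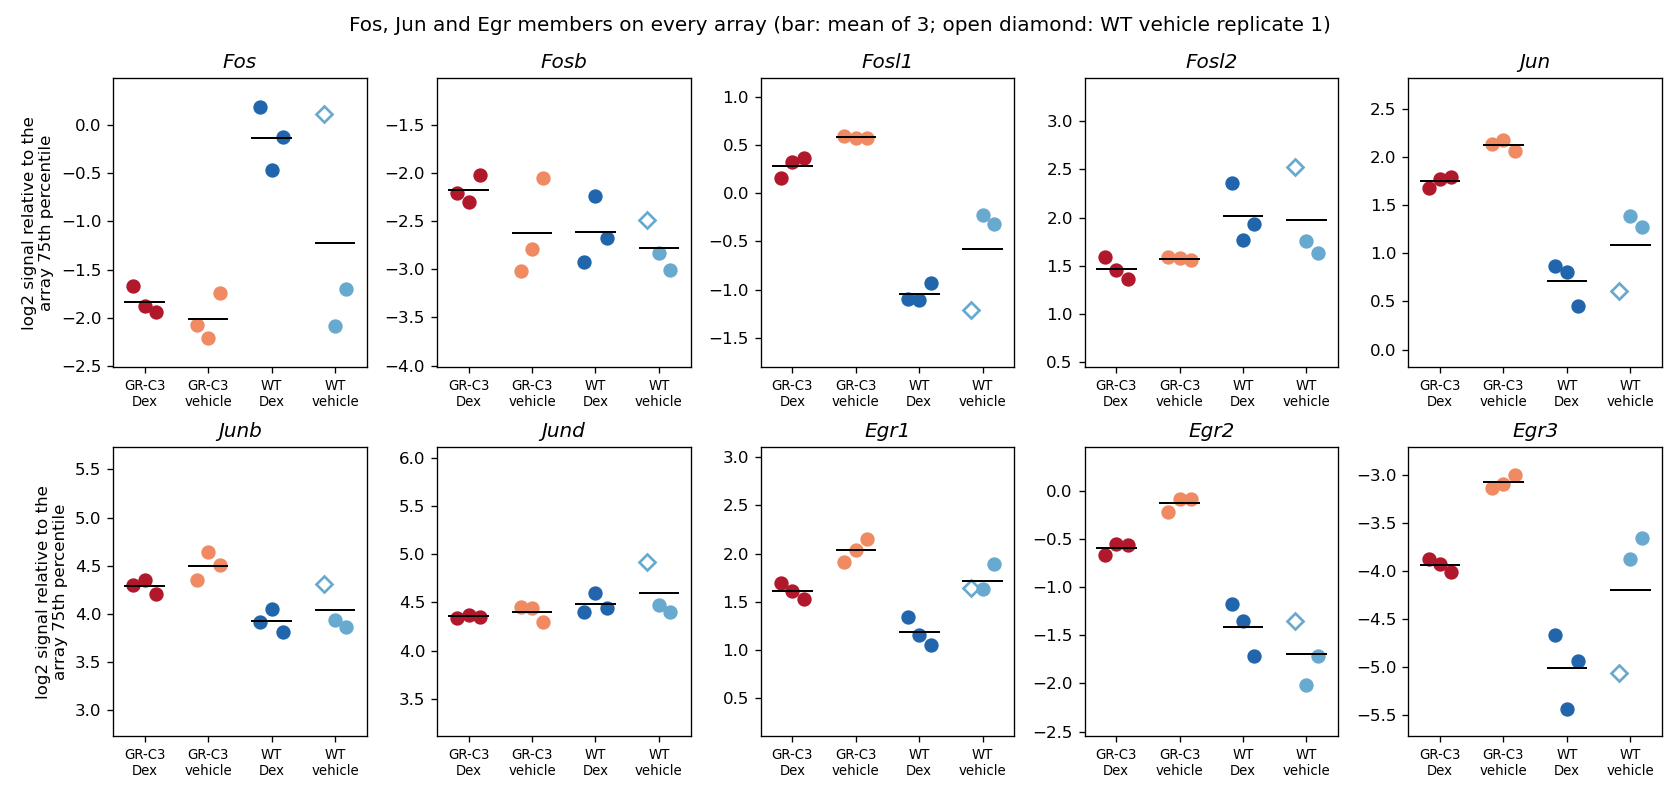
Level of each member on every array (log2 signal relative to the array's 75th percentile, each panel spanning the same range), by group, with a bar at the mean of 3 arrays and an open diamond for WT vehicle replicate 1. The diamond lies close to WT Dex for Fos (0.12), Fosl1 (-1.21), Jun (0.61) and Egr3 (-5.06). It lies with the other WT vehicle arrays for Egr1 (1.64). For Fosl2 (2.53), Junb (4.31) and Jund (4.92) it lies above all other WT arrays. The GR-C3 arrays lie above the WT arrays for Fosl1, Jun and Egr2.

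In GR-C3 cells the second question was whether Dex moved the same genes. With 12 arrays no member passed the limma test, where 0.101% of all genes did, and 3 had an unadjusted p under 0.05 (11.8% of all genes). With 11 arrays Egr3 fell, 1 of 10 members where 3.44% of all genes passed and 1.37% fell. Leaving out WT vehicle replicate 1 does not touch the GR-C3 values and changes only the estimate of the spread. The Dex and vehicle arrays did not overlap for 5 of 10 members, all of them lower in Dex, where 18.1% of all genes were lower without overlap.

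These 5 were Fosl1, Jun, Egr1, Egr2 and Egr3. Egr3 was at -3.88, -3.93 and -4.01 in GR-C3 Dex, against -3.14, -3.09 and -3.01 in GR-C3 vehicle. The groups were far apart beside their spread, with a change of -0.86 that had an adjusted p of 0.022 (SE 0.17) with 11 arrays and of 0.327 (SE 0.31) with 12. The call was lost without GR-C3 vehicle replicate 1 or 2 or GR-C3 Dex replicate 2 or 3 (adjusted p = 0.0632 to 0.0895) and with slide as a block (-0.93, adjusted p = 0.0649), and the other Egr3 probe gave -0.09 ± 0.38 (adjusted p = 0.927).

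Egr1 was at 1.70, 1.61 and 1.53 in GR-C3 Dex, against 1.91, 2.04 and 2.15 in GR-C3 vehicle, a change of -0.42 ± 0.11 (adjusted p = 0.0769 with 11 arrays). Jun was at 1.68, 1.77 and 1.80 in GR-C3 Dex, against 2.13, 2.18 and 2.07 in GR-C3 vehicle (-0.38 ± 0.11, adjusted p = 0.111). Fosl1 was at 0.16, 0.33 and 0.37 in GR-C3 Dex, against 0.60, 0.57 and 0.57 in GR-C3 vehicle (-0.30 ± 0.09, adjusted p = 0.113). All 3 were lower on every Dex array without passing the adjusted threshold. Jun passed without WT Dex replicate 3, which enters only through the spread (adjusted p = 0.0306).

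Egr2 was at -0.66, -0.55 and -0.57 in GR-C3 Dex, against -0.23, -0.09 and -0.09 in GR-C3 vehicle (-0.46 ± 0.14, adjusted p = 0.116 with 11 arrays). Fos was at -1.67, -1.88 and -1.94 in GR-C3 Dex, against -2.08, -2.21 and -1.74 in GR-C3 vehicle. The Fos groups overlapped, with a change of 0.18 ± 0.19 (adjusted p = 0.631). When only the 2 GR-C3 groups were fitted, Jun (adjusted p = 0.045), Egr2 (0.0323) and Egr3 (0.00448) passed, while Fos did not.

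Fosb, whose protein includes a stable truncated form known from brain, was at -2.21, -2.30 and -2.03 in GR-C3 Dex, against -3.01, -2.79 and -2.05 in GR-C3 vehicle. The groups overlapped, and the change of 0.44 ± 0.24 had an adjusted p of 0.368 with 11 arrays. Within the slide that held all GR-C3 Dex arrays and GR-C3 vehicle replicate 3 the Fosb difference was -0.13. On that slide the differences were -0.09 for Fos, -0.28 for Fosl1, -0.32 for Jun, -0.54 for Egr1, -0.51 for Egr2 and -0.93 for Egr3.

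The difference between the Dex responses was tested as the interaction, the Dex change in GR-C3 minus the Dex change in WT. With 12 arrays no gene of the 20836 passed, 1 of 10 members (Egr2) had an unadjusted p under 0.05, and 6.12% of all genes did. With 11 arrays the interaction passed for Fos, 1 of 10 members where 1.14% of all genes passed. The Dex response of Fos was smaller in GR-C3 by 1.58 ± 0.28 (adjusted p = 0.0284), and its 12-array interaction was -0.91 ± 0.63 (adjusted p = 0.874).

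This Fos call depended on single arrays. It was lost on leaving out 8 of the 11 arrays in turn (adjusted p = 0.0536 to 0.173), namely every further WT vehicle and GR-C3 vehicle array, WT Dex replicate 3 and GR-C3 Dex replicates 2 and 3, with values of -1.38 to -1.77, and it was lost with slide as a block (-2.16, adjusted p = 0.0538). For Egr2 the interaction was -0.91 ± 0.21 with 11 arrays (adjusted p = 0.0768) and passed without WT Dex replicate 1 (-0.79, adjusted p = 0.047) or replicate 3 (-1.06, adjusted p = 0.0279). The interaction of the other members did not pass, with 0.48 ± 0.13 for Fosl1 (adjusted p = 0.134), 0.24 ± 0.17 for Jun (0.535), 0.16 ± 0.17 for Egr1 (0.688) and 0.38 ± 0.25 for Egr3 (0.516).

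**Figure D2:**
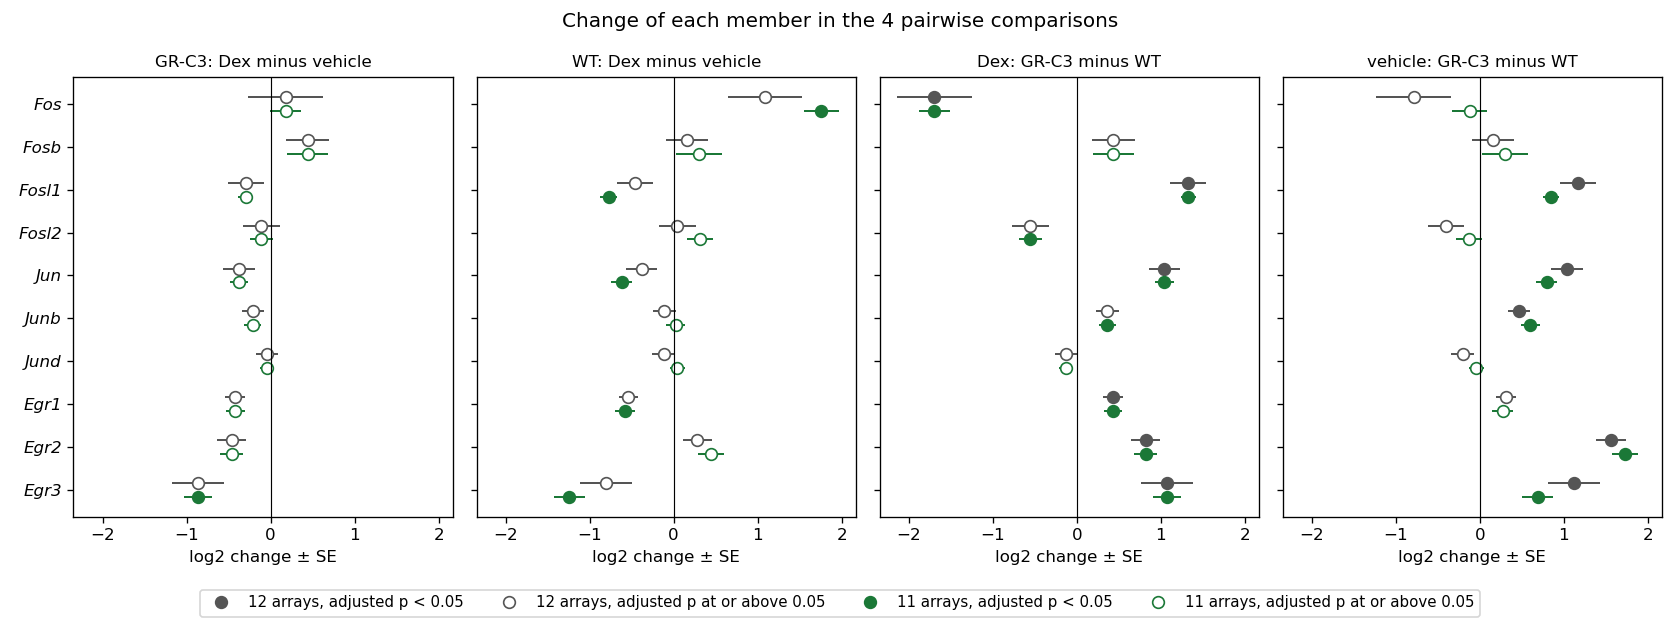
Log2 change ± SE of each member in 4 comparisons, Dex minus vehicle in GR-C3, Dex minus vehicle in WT, GR-C3 minus WT under Dex and GR-C3 minus WT under vehicle, with all 12 arrays (grey) and with 11 arrays (green), filled where the adjusted p is under 0.05. Fos changes by 0.18 in GR-C3 and 1.76 in WT with 11 arrays, and Fosl1, Jun, Egr2 and Egr3 lie right of 0 in both genotype comparisons.

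The third question was how the genotypes differed before Dex. Under vehicle, 5 of 10 members were higher in GR-C3 cells with 12 arrays, where 24.7% of all genes differed, 14.5% higher and 10.2% lower. These were Fosl1, Jun, Junb, Egr2 and Egr3, and none was lower. With 11 arrays the same 5 passed, where 27.3% of all genes differed. The median change of the 10 members was 0.39, beside 0.11 over all genes. The vehicle arrays of the genotypes did not overlap for 7 of 10 members, 6 higher and 1 lower in GR-C3, where 26.3% of all genes were higher and 17% lower without overlap.

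Egr2 had the largest of these changes. Its levels of -0.23, -0.09 and -0.09 in GR-C3 vehicle stood against -1.36, -2.02 and -1.71 in WT vehicle, with no overlap, and its probe lies on chromosome 10 at 67145376 to 67145435 (mm7, plus strand). The change was 1.56 ± 0.17 with 12 arrays (2.95-fold, adjusted p = 9.77e-05) and 1.73 ± 0.16 with 11 (adjusted p = 4.15e-05). Like Fos and Jun it had 10 spots per array, with a coefficient of variation of 2.89 to 7.36%.

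Fosl1 (probe on chromosome 19, 5350302 to 5350361 in mm7) was at 0.60, 0.57 and 0.57 in GR-C3 vehicle, against -1.21, -0.22 and -0.32 in WT vehicle. The change was 1.16 ± 0.21 with 12 arrays (adjusted p = 0.00276) and 0.85 ± 0.10 with 11 (adjusted p = 0.000222). Jun (probe on chromosome 4, 94441779 to 94441838 in mm7) was at 2.13, 2.18 and 2.07 in GR-C3 vehicle, against 0.61, 1.38 and 1.27 in WT vehicle. Jun was thus about 2.05-fold higher with 12 arrays (1.04 ± 0.19, adjusted p = 0.00241) and 1.74-fold higher with 11. For Egr2, Fosl1 and Jun every GR-C3 vehicle array was above every WT vehicle array, and leaving out any single array kept their calls. With normexp background correction on 12 arrays the vehicle calls of Fosl1 (1.10, adjusted p = 0.0975) and Jun (0.95, adjusted p = 0.0899) were lost, and so were those of Junb (0.57, adjusted p = 0.543) and Egr3 (1.03, adjusted p = 0.728).

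Junb, a Jun protein that can restrain Jun, was at 4.35, 4.65 and 4.51 in GR-C3 vehicle, against 4.31, 3.94 and 3.86 in WT vehicle. The change was 0.46 ± 0.13 with 12 arrays (adjusted p = 0.0285), and the call was lost without WT vehicle replicate 2 or 3 or GR-C3 vehicle replicate 2 or 3 (0.38 to 0.46, adjusted p = 0.0735 to 0.112) and with slide as a block (0.59, adjusted p = 0.138). With 11 arrays the change was 0.60 ± 0.11 (adjusted p = 0.0037), and no single further array ended the call. A second Junb probe, which overlaps the one used, was at 4.31, 4.49 and 4.25 in GR-C3 vehicle, against 3.70, 3.70 and 3.65 in WT vehicle (0.67 ± 0.12, adjusted p = 0.00327).

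Egr3 was at -3.14, -3.09 and -3.01 in GR-C3 vehicle, against -5.06, -3.88 and -3.66 in WT vehicle, with a change of 1.12 ± 0.31 with 12 arrays (adjusted p = 0.023) and 0.69 ± 0.19 with 11 (adjusted p = 0.0213). The array labelled WT vehicle replicate 1 thus moved this value by more than 1.5 times. With 12 arrays the call was lost without any single GR-C3 vehicle array (1.09 to 1.15, adjusted p = 0.0528 to 0.0658). With 11 arrays it was lost without WT vehicle replicate 2 or 3 or GR-C3 vehicle replicate 2 or 3 (0.58 to 0.80, adjusted p = 0.0531 to 0.151). The other Egr3 probe did not pass under vehicle (0.70 ± 0.37, adjusted p = 0.202 with 12 arrays).

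Fos did not differ between the genotypes under vehicle beyond its spread, at -0.12 ± 0.21 with 11 arrays (adjusted p = 0.687) and -0.79 ± 0.44 with 12 (adjusted p = 0.225). Egr1 was at 1.91, 2.04 and 2.15 in GR-C3 vehicle, against 1.64, 1.63 and 1.89 in WT vehicle, without overlap but without passing (0.31 ± 0.12, adjusted p = 0.0769 with 12 arrays, and 0.27 ± 0.12, adjusted p = 0.132 with 11). Fosl2 was at 1.59, 1.58 and 1.56 in GR-C3 vehicle, against 2.53, 1.76 and 1.64 in WT vehicle, lower without overlap but without passing (-0.40 ± 0.22, adjusted p = 0.209 with 12 arrays). With 11 arrays its change was -0.12 ± 0.15 (adjusted p = 0.572). A dimmer Fosl2 probe at another place in the gene (chromosome 5, 31185231 to 31185290 in mm7) ran the other way, at 0.72 ± 0.21 with 11 arrays (adjusted p = 0.0313) and 0.23 ± 0.35 with 12 (adjusted p = 0.665), so the direction for Fosl2 under vehicle is not settled by these arrays. Jund, the constitutively expressed Jun protein, was at 4.46, 4.44 and 4.29 in GR-C3 vehicle, against 4.92, 4.48 and 4.40 in WT vehicle (-0.20 ± 0.13, adjusted p = 0.305 with 12 arrays, and -0.04 ± 0.09, adjusted p = 0.770 with 11).

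Under Dex, 6 of 10 members differed between the genotypes with 12 arrays, where 29.4% of all genes did, 17.3% higher and 12.1% lower. Fosl1, Jun, Egr1, Egr2 and Egr3 were higher in GR-C3 and Fos was lower. With 11 arrays, in which only the estimate of the spread changes, Junb was also higher and Fosl2 lower, which made 8 of 10 where 40.5% of all genes passed. The comparison shares the WT Dex and GR-C3 Dex arrays with the Dex comparisons above, so its values are no independent support for them.

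Fos was at -1.67, -1.88 and -1.94 in GR-C3 Dex, against 0.18, -0.46 and -0.13 in WT Dex. It was 3.24-fold lower in GR-C3 (-1.70 ± 0.44, adjusted p = 0.0162 with 12 arrays, and 9.32e-05 with 11). The 12-array call was lost without WT Dex replicate 1 or 3 or GR-C3 Dex replicate 3 (-1.54 to -1.69, adjusted p = 0.0513 to 0.0547), and no single further array ended the 11-array call.

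Fosl1 was at 0.16, 0.33 and 0.37 in GR-C3 Dex, against -1.09, -1.11 and -0.93 in WT Dex, and was 2.51-fold higher (1.33 ± 0.21, adjusted p = 0.00114). Jun was at 1.68, 1.77 and 1.80 in GR-C3 Dex, against 0.87, 0.80 and 0.45 in WT Dex, and was 2.06-fold higher (1.04 ± 0.19, adjusted p = 0.00214). Egr2 was at -0.66, -0.55 and -0.57 in GR-C3 Dex, against -1.17, -1.36 and -1.72 in WT Dex (0.82 ± 0.17, adjusted p = 0.00548). For these 3 genes the lowest GR-C3 array was above the highest WT array under Dex as it was under vehicle. Under Dex 6 members were higher and 3 lower without overlap, where 31.9% of all genes were higher and 18.4% lower. With normexp on 12 arrays the calls of Fosl1 (0.80, adjusted p = 0.142) and Egr2 (0.15, adjusted p = 0.572) under Dex were lost, as were those of Fos (-1.26, adjusted p = 0.16) and Egr1 (0.64, adjusted p = 0.111).

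Egr1 was at 1.70, 1.61 and 1.53 in GR-C3 Dex, against 1.34, 1.15 and 1.05 in WT Dex (0.43 ± 0.12, adjusted p = 0.0194). With 12 arrays this call was lost without WT Dex replicate 3 or GR-C3 Dex replicate 1 or 2 (0.37 to 0.43, adjusted p = 0.0562 to 0.0713), with slide as a block (0.33, adjusted p = 0.255) and with scaling to the array median (0.33, adjusted p = 0.0821). The Egr1 probe lies on chromosome 18 (35240842 to 35240901 in mm7), which also carries the targeted gene Nr3c1. A part of sequence linked to the edited gene in this difference was not tested. Egr3 was at -3.88, -3.93 and -4.01 in GR-C3 Dex, against -4.67, -5.43 and -4.93 in WT Dex (1.07 ± 0.31, adjusted p = 0.0248). Its 12-array call was lost without WT Dex replicate 2 or 3 or any GR-C3 Dex array (0.86 to 1.11, adjusted p = 0.0582 to 0.0778), and a background correction by normexp turned its sign (-0.80, adjusted p = 0.411). The other Egr3 probe did not pass under Dex either (0.52 ± 0.37, adjusted p = 0.311 with 12 arrays), so the genotype calls of Egr3 rest on a single probe.

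Junb and Fosl2 passed with 11 arrays. Junb was at 4.30, 4.36 and 4.21 in GR-C3 Dex, against 3.92, 4.05 and 3.81 in WT Dex (0.36 ± 0.10, adjusted p = 0.0171), and the call was lost without WT Dex replicate 3 (0.31, adjusted p = 0.0542) or GR-C3 Dex replicate 2 (0.33, adjusted p = 0.0618) and with slide as a block (0.35, adjusted p = 0.279). The second Junb probe passed under Dex already with 12 arrays (0.58 ± 0.12, adjusted p = 0.00609). Fosl2 was at 1.59, 1.45 and 1.36 in GR-C3 Dex, against 2.36, 1.77 and 1.93 in WT Dex (-0.55 ± 0.14, adjusted p = 0.0112), and was lost with slide as a block (-0.36, adjusted p = 0.195). The dimmer Fosl2 probe did not pass under Dex with 11 arrays (-0.33 ± 0.19, adjusted p = 0.192), so the Fosl2 call rests on a single probe.

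No slide carried GR-C3 and WT arrays of the same treatment, so the genotype differences have no within-slide value. A single slide carried both genotypes, as WT Dex replicates 2 and 3 with GR-C3 vehicle replicates 1 and 2. The slide block joins that difference to a Dex change on another slide. Under vehicle it is that of WT Dex replicate 1 from WT vehicle replicates 2 and 3. Under Dex it is that of the GR-C3 Dex arrays from GR-C3 vehicle replicate 3 alone. With slide as a block the differences under vehicle were 0.78 ± 0.17 for Fosl1 (adjusted p = 0.0363), 1.07 ± 0.20 for Jun (0.0202), 2.07 ± 0.24 for Egr2 (0.00314) and 1.17 ± 0.26 for Egr3 (0.0365). Under Dex they were -1.94 ± 0.26 for Fos (adjusted p = 0.00383), 1.32 ± 0.17 for Fosl1 (0.00303), 1.21 ± 0.19 for Jun (0.00697), 0.87 ± 0.23 for Egr2 (0.0428) and 1.13 ± 0.25 for Egr3 (0.0233).

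The order of the mean levels across the 4 groups is described here without a test. Fosl1, Jun, Egr1 and Egr3 were highest in GR-C3 vehicle and lowest in WT Dex. For Fosl1, for example, the means were 0.28 in GR-C3 Dex, 0.58 in GR-C3 vehicle, -1.04 in WT Dex and -0.58 in WT vehicle, and the last of these was -0.27 without replicate 1. Egr2 and Junb followed genotype more than treatment, and WT Dex and WT vehicle overlapped for both. Fos stood alone, with WT Dex on top at a mean of -0.14 ± 0.32 (SD, n = 3), while GR-C3 Dex at -1.83 ± 0.14, GR-C3 vehicle at -2.01 ± 0.24 and WT vehicle replicates 2 and 3 lay within the spread of one another. Fosl2 had higher means in WT, with 1.47 in GR-C3 Dex, 1.57 in GR-C3 vehicle, 2.02 in WT Dex and 1.98 in WT vehicle. Fosb and Jund passed in none of the 5 comparisons, with 12 or with 11 arrays.

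Correlations over the 12 arrays are descriptive, because the arrays share group means and slides. Fosl1 and Jun correlated at 0.973 (0.967 without WT vehicle replicate 1), Fosl1 and Egr3 at 0.911 (0.894) and Egr1 and Egr3 at 0.884 (0.962). Fos ran opposite to Fosl1 at -0.914 (-0.892) and to Jun at -0.891 (-0.867). Outside the 3 families, the genes most like Fosl1 over the 12 arrays were Mycn (r = 0.995), Tnk2 (0.990) and Insc (0.987). Those most like Jun were Mrpl19 (0.992), the immediate early gene Ier5 (0.992) and Gmeb1 (0.990), and those most like Fos were Napepld (0.984), Arhgef3 (0.983) and Fdx1 (0.979). Those most like Egr2 were Spsb4 (0.971), Ivns1abp (0.966) and the transcription factor gene Sox2 (0.966), and those most like Egr3 were Gt(ROSA)26Sor (0.984), Arhgap18 (0.982) and Mex3b (0.981). For Egr1 they were Lrr1 (0.981), Ing5 (0.969) and Rdh10 (0.955). Without WT vehicle replicate 1 the r of these 18 genes was 0.959 to 0.994. For Fosb they were Olfr996 (0.985), Krt5 (0.984) and Igdcc3 (0.983), and for Junb Cox7a1 (0.969), Cib1 (0.965) and Lsm5 (0.957). Without that array the r for Fosb and Junb was 0.961 to 0.985. For Fosl2 they were Rac1 (0.958), Wwp1 (0.948) and Robo1 (0.947), which became 0.918, 0.910 and 0.899. For Jund they were Bace1 (0.984), Terf2 (0.972) and Ghdc (0.964), which became 0.945, 0.904 and 0.830.

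Genes known as AP-1 targets encode matrix proteases, cytokines and growth factors. In WT cells with 11 arrays, 11 of 24 measured targets fell and 1 rose with Dex, where 12.2% of all genes changed. The median was -0.32 beside 0.02 over all genes. With 12 arrays none passed limma's adjusted test, while 13 had an unadjusted p under 0.05 (16.6% of all genes). The largest decrease was that of Ccl2, a monocyte-attracting chemokine, which was at 2.84, 2.85 and 2.58 in WT Dex, against 2.85, 5.0 and 4.70 in WT vehicle (-2.09 ± 0.12, adjusted p = 6.41e-06 with 11 arrays). Replicate 1 of WT vehicle again sat with WT Dex. Il6 fell by 1.83 and Il11 by 1.19 in WT cells, while the integrin gene Itga5 rose by 1.25. These 3 genes, like Ccnd1, Spp1 and Dusp1 below, were picked out after their values were seen.

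In GR-C3 cells with 11 arrays, 6 of 24 targets fell with Dex and none rose, where 3.44% of all genes changed, and 1 (Il11, -1.17) passed with 12 arrays. Ccl2 was at 4.19, 4.19 and 4.18 in GR-C3 Dex, against 4.90, 5.07 and 5.08 in GR-C3 vehicle (-0.83 ± 0.11, adjusted p = 0.00314). Ccl2 was also the 1 target whose Dex response differed between the genotypes, by 1.26 ± 0.16 (adjusted p = 0.0074 with 11 arrays), where 1.14% of all genes passed.

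Between the genotypes, 14 of 24 AP-1 targets were higher and 3 lower in GR-C3 under vehicle with 12 arrays, with a median of 0.61 beside 0.11 over all genes, of which 24.7% differed. Under Dex 15 were higher and 3 lower, where 29.4% of all genes differed. With 11 arrays the vehicle counts were also 14 and 3, where 27.3% of all genes differed. The changes were then 2.15 for Krt18, 1.80 for Mmp9 and -1.92 for Mmp3. Krt18, a keratin gene that also counts as an epithelial marker, was 2.29 ± 0.15 higher under vehicle, and the gelatinase gene Mmp9 was 1.89 ± 0.16 higher. The stromelysin gene Mmp3, a classical AP-1 target in fibroblasts, was lower by the same order, at -1.91 ± 0.12 (adjusted p = 1.7e-06), and Ccnd1 and Spp1 were also lower. Higher and lower targets thus stood side by side.

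**Figure D3:**
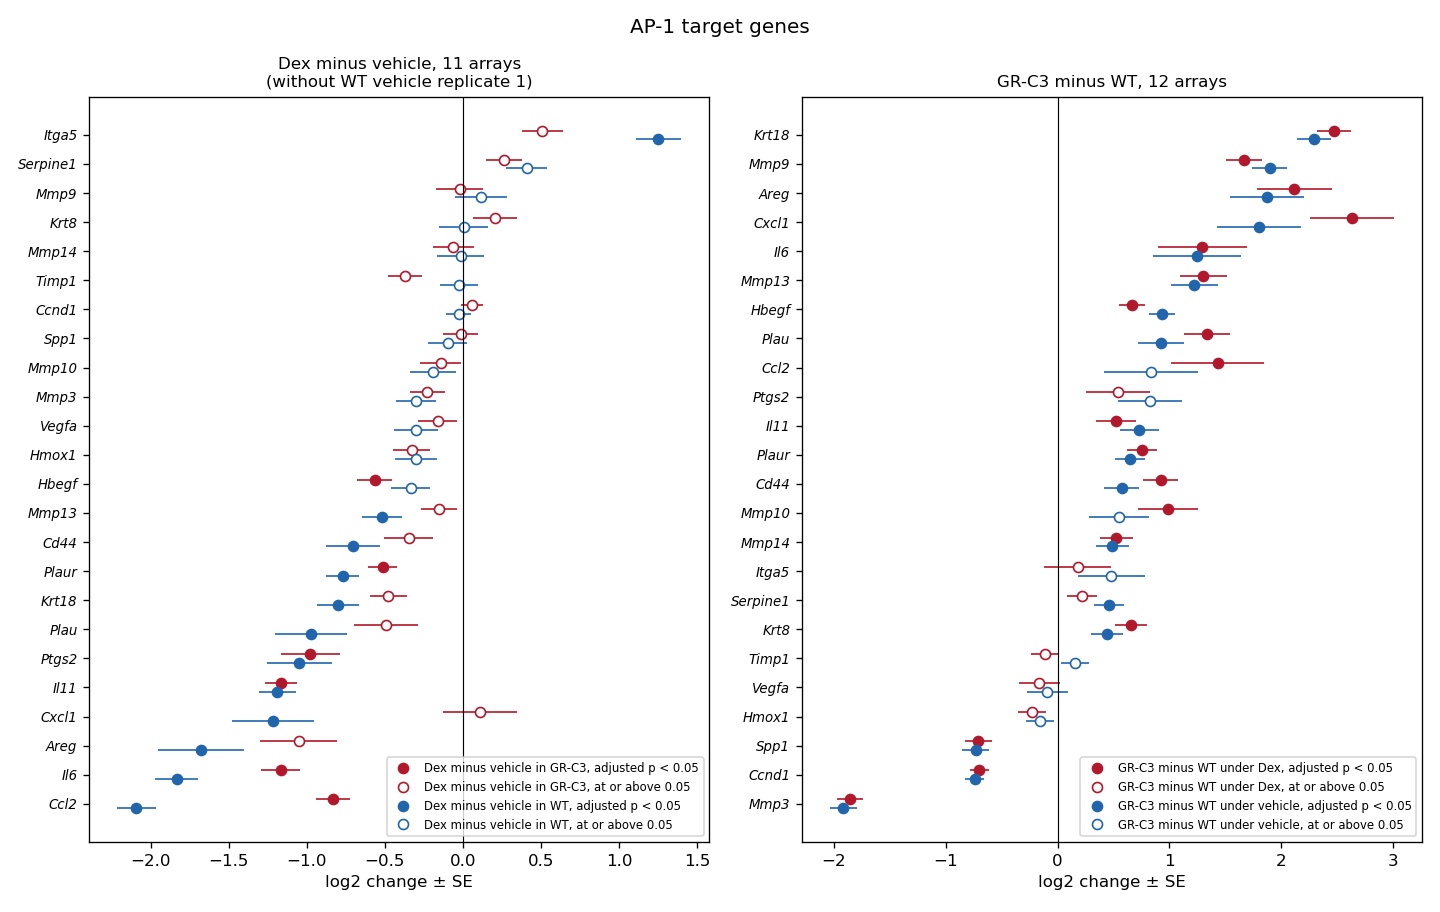
Log2 change ± SE of 24 AP-1 target genes, left as Dex minus vehicle with 11 arrays in GR-C3 (red) and WT (blue), right as GR-C3 minus WT with 12 arrays under Dex (red) and vehicle (blue), filled where the adjusted p is under 0.05. Ccl2 has the lowest Dex change in WT (-2.09), and Krt18 (2.29) and Mmp3 (-1.91) lie at the ends of the genotype difference under vehicle.

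Among the dimer partners of AP-1 from other bZIP families, with 12 arrays 1 of 15 was higher and 2 were lower in GR-C3 under vehicle, and the counts were the same under Dex, where 24.7% of all genes differed under vehicle and 29.4% under Dex. Atf3, a stress-induced partner of Jun, was 0.75 ± 0.14 higher under Dex (adjusted p = 0.00252), and the small Maf genes Maff (-0.76 ± 0.17) and Mafk (-0.51 ± 0.11) were lower. In WT cells with 11 arrays Dex lowered 3 partners and raised 1, where 12.2% of all genes changed. Crem, a cAMP-responsive factor, was at -0.55 ± 0.10 (adjusted p = 0.005). In GR-C3 cells Crem alone passed (-0.42 ± 0.09, adjusted p = 0.0276), where 3.44% of all genes changed.

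Of 10 measured partners and regulators of the Egr genes, 6 were higher in GR-C3 under vehicle and 7 under Dex with 12 arrays, and none was lower, beside the same shares of all genes. The median difference was 0.49 under vehicle and 0.52 under Dex. Egr4, the remaining gene of the Egr family, was at -3.27, -3.02 and -2.72 in GR-C3 Dex, against -5.33, -5.39 and -5.54 in WT Dex (2.42 ± 0.19, adjusted p = 9.52e-06). Under vehicle Egr4 was 1.87 ± 0.19 higher (adjusted p = 5.98e-05). The corepressor gene Nab2, itself an Egr target, was 0.89 ± 0.20 higher under vehicle, Srf, which encodes serum response factor, 0.60 ± 0.12, and Wt1, a zinc finger gene of related DNA binding, 1.70 ± 0.27. With 11 arrays these changes were 1.65 for Egr4, 0.63 for Nab2, 0.53 for Srf and 2.08 for Wt1. In WT cells with 11 arrays Dex lowered Egr4 (-0.73 ± 0.16) and raised Wt1 (0.78 ± 0.15), and in GR-C3 cells limma called none of the 10 (1 at an unadjusted p under 0.05 with 11 arrays).

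Of 32 other immediate early genes, 11 were higher and 1 lower in GR-C3 under vehicle with 12 arrays, where 24.7% of all genes differed. Klf10 (0.86 ± 0.09) and Phlda1 (1.15 ± 0.26) were among the higher ones, and the GR target Dusp1 was lower (-0.68). With 11 arrays they were at 0.90 for Klf10, 0.77 for Phlda1 and -0.40 for Dusp1. Under Dex 11 were higher and 5 lower, where 29.4% of all genes differed. With 11 arrays, Dex raised 3 and lowered 4 in GR-C3 cells, where 3.44% of all genes changed. In WT cells it raised 8 and lowered 10, where 12.2% of all genes changed. Csrnp1 rose in WT Dex by 1.99 ± 0.10 and the MAP kinase phosphatase gene Dusp4 fell by 1.77 ± 0.16. Of 25 MAP kinase cascade genes, 2 were higher and 2 lower under vehicle with 12 arrays, where 24.7% of all genes differed, with Map2k6 at 1.25 ± 0.19 and Map3k5 at -1.97 ± 0.26 (0.99 and -1.60 with 11 arrays). Without WT vehicle replicate 1 these genotype counts became 6 higher and 2 lower for the cascade genes under vehicle, 15 higher and 11 lower for the other immediate early genes under Dex, and 3 higher and 2 lower for the bZIP partners under Dex. Of all genes, 27.3% then differed under vehicle and 40.5% under Dex.

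As a check of the response itself, 8 of 9 measured glucocorticoid-induced genes rose with Dex in GR-C3 cells and 9 of 9 in WT cells with 11 arrays, with median changes of 2.28 in GR-C3 cells and 2.76 in WT cells. The WT count is not independent of leaving out WT vehicle replicate 1, because Fkbp5, which set that array apart, is in this list. With 12 arrays limma called none of them in either genotype, and 7 in GR-C3 cells and 9 in WT cells had an unadjusted p under 0.05. Of 9 measured heat shock and stress genes, 3 rose and 2 fell in WT cells with 11 arrays, and in GR-C3 cells limma called none (5 at an unadjusted p under 0.05). Of all genes, 3.44% changed with Dex in GR-C3 cells and 12.2% in WT cells with 11 arrays.

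Markers of other cell types were compared between the genotypes in the same way, beside 24.7% of all genes that differed under vehicle and 29.4% under Dex. With 11 arrays 27.3% of all genes differed under vehicle. Of 7 neural and Schwann markers, all well above background in every group, 4 were higher and 1 lower in GR-C3 under vehicle with 12 arrays, and 5 were higher and 1 lower under Dex. Their summed signal, in multiples of the array's 75th percentile, was 12.9 to 13.8 in GR-C3 Dex, 13.3 to 14.7 in GR-C3 vehicle, 7.63 to 9.5 in WT Dex and 7.39 to 9.58 in WT vehicle. Nes (1.77 ± 0.13) and Sox10 (1.67 ± 0.22) were among those higher under vehicle and S100b lower (-0.92 ± 0.21). With 11 arrays they were at 1.71 for Nes, 1.39 for Sox10 and -0.66 for S100b. Each sum follows the brightest probes of its list. In bulk samples a change in the number of such cells and a change of RNA per cell cannot be told apart.

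Skeletal muscle markers summed to 69.2 to 78.7 in GR-C3 Dex, 61.6 to 75.9 in GR-C3 vehicle, 43.0 to 53.0 in WT Dex and 37.4 to 45.1 in WT vehicle, with 3 of 6 measured genes higher under vehicle and Myf5 not well above background on any array. Nearly all of this sum was the signal of Actc1, whose log2 level was 5.87 to 6.19 in GR-C3 vehicle and 5.21 to 5.48 in WT vehicle. Endothelial markers summed to 2.44 to 2.63 in GR-C3 Dex, 2.01 to 2.19 in GR-C3 vehicle, 0.679 to 0.827 in WT Dex and 0.649 to 0.838 in WT vehicle, with 2 of 4 measured genes higher under vehicle, and Cdh5 and Tie1 were not well above background on any array. Emcn gave most of the endothelial sum. Epithelial markers, of which Cdh1 was well above background on no array, summed to 1.82 to 1.96 in GR-C3 Dex, 2.31 to 2.62 in GR-C3 vehicle, 0.631 to 0.890 in WT Dex and 0.778 to 0.888 in WT vehicle. Of 4 measured epithelial genes, 2 were higher under vehicle with 12 arrays and 1 with 11, and 2 were higher and 1 lower under Dex.

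Of 7 measured macrophage and leukocyte markers, 2 were lower in GR-C3 under vehicle with 12 arrays, Lyz2 (-0.39 ± 0.11) and Ptprc (-1.25 ± 0.31), and 5 did not pass. With 11 arrays 3 were lower. Itgam was well above background on no WT array. The sums of the macrophage and leukocyte markers were 5.15 to 5.60 in GR-C3 Dex, 6.13 to 6.62 in GR-C3 vehicle, 6.61 to 7.59 in WT Dex and 7.01 to 8.60 in WT vehicle. Lyz2 gave most of each of these sums. Limma called none of 3 measured erythroid markers in a genotype comparison (1 at an unadjusted p under 0.05, under Dex), and 2 of 11 fibroblast markers, Dcn among them (-0.86 ± 0.09, and -0.85 with 11 arrays), were lower under vehicle. These values stand beside the genotype differences of Fosl1, Jun, Junb, Egr1, Egr2 and Egr3, and their part in those differences was not tested.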

How the data were processed

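Total RNA of 12 MEF samples, 3 in each of 4 groups, was measured on Agilent arrays in a single colour (Cy3), 1 array per sample. Per the file headers, the authors extracted the spot intensity values with Agilent Feature Extraction 9.5.3.1 (9.5 per the submitters' processing notes), and probe positions are in build mm7. The deposited processed intensity was already background-subtracted by that software. The deposited value table held the same values for 45018 spots and was not used.

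Spots of a probe were averaged, and levels were log2 of the deposited processed intensity minus each array's 75th percentile. Probes had to exceed background clearly on every array of some group (30934 did, 10240 were left out). Each gene was represented by its kept probe of highest mean, named through the RefSeq gene table (GRCm38.p6) where its accession matched. limma 3.58.1 in R 4.3.3 fitted 1 coefficient per group, and p-values were adjusted over 20836 genes with a threshold of 0.05. The comparisons were: Dex in each genotype, their difference, and genotype under each treatment, each with 12 arrays and with 11, without WT vehicle replicate 1. The members and gene lists were chosen with earlier results of these data known. Of each list the text names up to 4 called genes with the smallest p in any comparison, or up to 2 with the highest mean signal where none was called. For each member it names the 3 other genes with the highest r over the 12 arrays; exceptions are marked. An exact permutation test of 3 against 3 cannot go below 0.1, and with 3 arrays a group no outlier test was made. Alternatives covered background correction (normexp, offset 50), scaling, filter, probe choice, slide, replicate number and single arrays. The fitting was tested on simulated data. The number of arrays limits precision.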

Additional observations from a re-analysis of the deposited data

Results flagged for a closer look

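With 11 arrays, without WT vehicle replicate 1, the Dex response differed between the genotypes by the limma interaction test (Dex change in GR-C3 minus Dex change in WT) for the following genes. With 12 arrays the interaction passed for none of them. Among the 10 members this held for Fos, at -1.58 ± 0.28 (adjusted p = 0.0284), with Dex changes of 0.18 in GR-C3 and 1.76 in WT.

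Among other immediate early genes, Csrnp1 differed by -1.42 ± 0.14 (adjusted p = 0.00169), with Dex changes of 0.56 in GR-C3 and 1.99 in WT. Trib1, a pseudokinase gene, differed by -1.19 ± 0.14 (adjusted p = 0.00566), with 0.04 in GR-C3 and 1.22 in WT. Dusp4 differed by 1.13 ± 0.22 (adjusted p = 0.042), with -0.64 in GR-C3 and -1.77 in WT, and the growth arrest gene Gadd45a by 1.05 ± 0.20 (adjusted p = 0.0369), with -0.38 in GR-C3 and -1.43 in WT. The AP-1 target Ccl2 differed by 1.26 ± 0.16 (adjusted p = 0.0074), with -0.83 in GR-C3 and -2.09 in WT.

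Among glucocorticoid-induced genes, Fkbp5 differed by -1.65 ± 0.21 (adjusted p = 0.00645), with 3.07 in GR-C3 and 4.73 in WT. Sgk1, a serum- and glucocorticoid-regulated kinase gene, differed by -1.29 ± 0.14 (adjusted p = 0.00268), with 0.77 in GR-C3 and 2.06 in WT, and the metallothionein gene Mt2 by -1.13 ± 0.18 (adjusted p = 0.0196), with 2.56 in GR-C3 and 3.69 in WT. The endothelial marker Kdr differed by 1.10 ± 0.16 (adjusted p = 0.0127), with 0.59 in GR-C3 and -0.51 in WT. Gadd45a, Trib1 and Sgk1 were singled out after their values were seen. No cause was tested.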

How the results depend on the processing

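The 10 members' changes in 5 comparisons, 50 results, were recomputed under alternatives. With 12 arrays, 1133 of 1190 values kept direction and side of the threshold, 35 lost and 21 gained a call, and 1 called value changed sign: Egr3 under Dex between genotypes, at -0.80 with normexp. With 11 arrays, for which the further single-array, repaired-normexp and replicate settings were chosen after seeing the data, 714 of 750 kept both, 30 lost, 6 gained and 0 changed sign. A sign change counts only where the value was called in either fit; 46 and 25 uncalled values changed sign. The cause was not tested.

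Genes called for Dex in WT (25) became 0 with normexp, without a filter, with only the groups compared and with the replicate block, 44 with quantile normalization, 1019 with slide as a fixed and 83 as a random block, where the fixed block called 4 members (0 otherwise). For Dex in GR-C3 (21) they became 0 with normexp, 123 with quantile, 57 with median scaling, 10 without a filter, 34 with every probe, 12 with the mean of probes, 696 with only the groups compared (3 members), 314 and 34 with slide as a fixed and random block and 10 with the replicate block. For the interaction (0) they became 3 with quantile, 36 with the slide block and 1 with the replicate block. Under vehicle (5148 genes, 5 members) normexp called 378 genes and 1 member, the groups compared alone 3 members, and the slide block 1630 genes. Under Dex (6136 genes, 6 members) normexp called 457 genes and 1 member and the slide block 3222 genes.

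With 11 arrays and the slide block, genes called were 1019 for Dex in WT (2543), 313 for Dex in GR-C3 (716, with 0 members), 36 for the interaction (238, with 0 members), 1630 under vehicle (5684) and 3213 under Dex (8431, with 5 members of 8). Quantile normalization called 371 for the interaction, and normexp with outlier backgrounds replaced 386 for Dex in GR-C3.

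Leaving out single arrays from the 12 gave 0 to 5 members and 0 to 2543 genes for Dex in WT, 0 to 1 and 2 to 716 for Dex in GR-C3, 0 to 1 and 0 to 238 for the interaction, 3 to 5 and 3235 to 5684 under vehicle, and 3 to 8 and 3986 to 8431 under Dex. The highest gene counts came without WT vehicle replicate 1. From the 11 it gave 3 to 6 and 954 to 4422, 0 to 2 and 306 to 1141, 0 to 2 and 58 to 1190, 4 to 5 and 2545 to 6888, and 7 to 8 and 6284 to 9296, in the same order of comparisons.

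Samples sharing a replicate number did not deviate together: their deviations correlated at -0.215 to 0.214 over 18 pairs, beside -0.290 to 0.294 over 36 pairs of other numbers. The numbers were therefore not read as pairing. With the replicate block on 12 arrays, Fosl2 under Dex between genotypes gained a call (-0.55, adjusted p = 0.0394), and on 11 arrays the Fos interaction was -1.51 (adjusted p = 0.0291).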
